A study of Mus musculus with 6 samples.

Results

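The genes described here encode 5 intermediate filament proteins: Bfsp1 (filensin) and Bfsp2 (phakinin, also called CP49), the 2 subunits of the beaded filament of lens fiber cells, and Vim (vimentin), Nes (nestin) and Gfap (glial fibrillary acidic protein), filament proteins of other cells as well. All probe sets annotated to these genes were taken, which gave 11 of the 45037 probe sets measured: 1 for Bfsp1, 1 for Bfsp2 and 3 each for Vim, Nes and Gfap. Affymetrix arrays measured RNA of whole Balb/c mouse lenses at 2 days of age, in 3 transgenic samples (T1 to T3) and 3 wild-type samples (W1 to W3). The labels name neither the transgene nor the promoter that drives it. Each genotype drew on 12 lenses, and how these were divided among the replicates is not said. Whether replicates stem from different animals is not said either, so a p-value here reflects the spread of these 6 samples alone, part of which may be technical.

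Intermediate filaments are rope-like polymers of the cytoskeleton, built from proteins that share a central coiled-coil rod. Lens epithelial cells and young fiber cells hold vimentin filaments. As fiber cells differentiate they build the beaded filament, a structure known from the lens alone, in which filensin and phakinin assemble together. Nestin is a large filament protein of progenitor cells, muscle and endothelium that copolymerises with vimentin, and glial fibrillary acidic protein is the filament protein of astrocytes and reactive glia.

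In transgenic lenses the filensin gene Bfsp1 fell 3.17-fold, while the vimentin gene Vim rose 1.51-fold on its brightest probe set. Bfsp2, whose product is the assembly partner of filensin, stood 1.37-fold lower in transgenic lenses and missed the threshold narrowly. One of 3 Gfap probe sets fell, and 0 of 3 Nes probe sets passed in limma (1 had an unadjusted p under 0.05, as did 21.0% of all probe sets). In all, 4 of the 11 probe sets passed the test, 2 higher (both Vim) and 2 lower (Bfsp1 and 1 of Gfap), where 3.68% of all probe sets passed in either direction, 1.47% higher and 2.21% lower (limma's linear model with empirical Bayes moderation, Benjamini-Hochberg adjusted p under 0.05 over all 45037 probe sets). On the normalised values the arrays of the genotypes did not overlap for 9 of the 11, 5 higher and 4 lower in transgenic lenses. Of all probe sets, 27.0% had groups that did not overlap, 13.6% higher and 13.4% lower. Probe sets of 1 gene measure the same transcripts, so these counts are not counts of independent events. The members were also chosen with earlier results of these data known, so the counts do not test the set. Of the 11, 8 lay at or above the median level of all probe sets. In a fit of the 22519 probe sets at that level, 716 were higher and 951 lower, with 2 member probe sets higher and 2 lower.

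The 250 bases before the annotated transcript start of Bfsp1, Bfsp2 and Vim are shown because these 3 genes carry the contrast between beaded filament and vimentin transcripts. They come from RefSeq's annotation of GRCm38.p6, read 5′ to 3′ on the strand of the gene, and all 5 genes were found there. Bfsp1 lies on the minus strand (chr2:143863174-143863423), Bfsp2 on the minus strand (chr9:103449177-103449426) and Vim on the plus strand (chr2:13574061-13574310). Capitals mark matches, on either strand, to 8 short motifs: TATAAA as the TATA box, CCAAT as the box of that name, GGGCGG as the GC box, TGCTGA as the core of Maf sites, TGANTCA for AP-1, TAAACA as the forkhead core, GAANNTTC as the heat shock element and ACAANG as the Sox core.
Bfsp1: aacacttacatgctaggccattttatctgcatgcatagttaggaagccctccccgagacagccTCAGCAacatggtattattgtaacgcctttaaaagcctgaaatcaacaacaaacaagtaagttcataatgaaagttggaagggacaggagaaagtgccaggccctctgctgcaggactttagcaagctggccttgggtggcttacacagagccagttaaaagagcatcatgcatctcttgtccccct
Bfsp2: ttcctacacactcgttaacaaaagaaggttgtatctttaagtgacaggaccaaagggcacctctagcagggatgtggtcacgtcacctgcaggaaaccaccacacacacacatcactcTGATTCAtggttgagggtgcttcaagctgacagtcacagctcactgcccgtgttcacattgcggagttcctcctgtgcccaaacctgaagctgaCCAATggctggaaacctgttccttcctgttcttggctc
Vim: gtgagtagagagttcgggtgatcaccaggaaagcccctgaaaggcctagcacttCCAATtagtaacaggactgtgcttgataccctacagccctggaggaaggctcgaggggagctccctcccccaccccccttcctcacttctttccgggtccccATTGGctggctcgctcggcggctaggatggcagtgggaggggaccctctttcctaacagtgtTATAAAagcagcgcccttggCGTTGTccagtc

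The Bfsp1 stretch held 1 match, a Maf core on the opposite strand (TCAGCA as printed) from base -187 to -182 counted back from the start, a motif found in 16.1% of all 32851 promoter windows of this length. The Bfsp2 stretch held an AP-1 match at -132 to -126 (6.75% of all windows) and a CCAAT box at -38 to -34 (33.8%). The Vim stretch held a TATA box at -32 to -27 (12.4% of all windows), 2 CCAAT boxes and a Sox core match (36.3%). None of the 3 stretches matched the forkhead core (12% of all windows), the heat shock element (6.69%) or the GC box (32.7%). No matches of the 8 motifs overlapped within these stretches, and a match is a string of letters and no measure of binding.

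Bfsp1 is measured by a single probe set (1450571_a_at). Its log2 values were 12.10, 12.03 and 11.79 in T1, T2 and T3, against 13.52, 13.64 and 13.76 in W1, W2 and W3. Every transgenic array lay more than 1 log2 unit below every wild-type array, and the arrays within a genotype stood close together. The means were 11.98 ± 0.16 for transgenic and 13.64 ± 0.12 for wild-type lenses (SD, n = 3 each), a difference of -1.66 ± 0.11 (SE; limma adjusted p = 0.000279), with a 95% interval of -1.92 to -1.41. Ranked by log2 difference, this was the 51st lowest of all 45037 probe sets. With any 1 array left out the difference ran from -1.73 to -1.57 and passed each time (limma adjusted p from 0.000467 to 0.00367). In a whole organ, fewer cells of a type and less RNA per cell cannot be told apart.

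Bfsp2 is likewise measured by a single probe set (1434463_at). Its log2 values were 12.74, 12.56 and 12.55 in T1 to T3, against 12.92, 13.09 and 13.20 in W1 to W3. The groups did not overlap, but the gap between T1 and W1 was smaller than the range within either genotype. The means were 12.62 ± 0.11 for transgenic and 13.07 ± 0.14 for wild-type lenses (SD, n = 3 each). The difference of -0.45 ± 0.10 (SE) had a 95% interval of -0.69 to -0.21 and did not pass over all probe sets (limma adjusted p = 0.0557). It passed without W1 (limma adjusted p = 0.0484) and did not pass without any other array (0.0760 to 0.172), and it passed under 4 of 8 settings that kept all arrays.

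The single probe sets of the 2 beaded filament partners differed in how far they stood from wild type. Probe sets of 1 gene can differ as well, as Sptbn1 (-0.85 and -1.61) and Gja3 (-0.32 and -0.77) show. Taken within each array and set to 0 at the wild-type mean, the log2 ratio of Bfsp1 to Bfsp2 was -1.21, -1.10 and -1.33 in T1 to T3, against 0.034, -0.019 and -0.015 in W1 to W3. Bfsp1 was thus lower relative to Bfsp2 in every transgenic array than in any wild-type array, by 1.21 log2 units in the mean. The same comparison gave a difference of -2.26 for Bfsp1 against Vim, -1.81 against Nes and -1.43 against Gfap, each on the brightest probe set. For all 4 pairs the groups did not overlap and the exact two-sided permutation test gave p = 0.1 (adjusted over the 4 pairs 0.1), the smallest value that 3 arrays against 3 allow. All 4 pairs share the Bfsp1 values, so they are not 4 independent results. Bfsp1 differed by -1.66 and the other members by -0.45 to 0.60, so the separation follows mainly from Bfsp1.

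**Figure D1:**
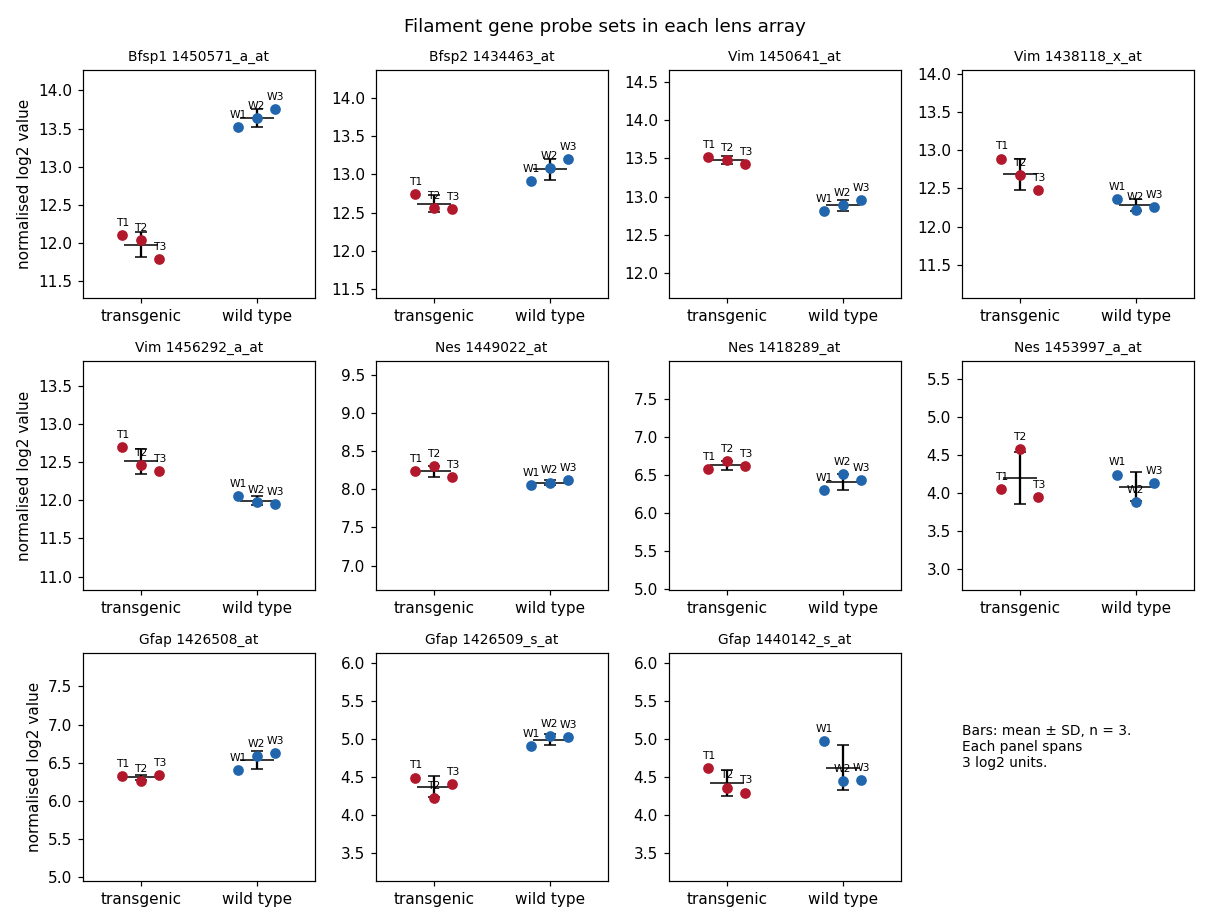
Normalised log2 values of the 11 probe sets in each array, transgenic left and wild type right, with bars for the mean ± SD (n = 3) and 3 log2 units on each vertical axis. Bfsp1 shows the widest gap between genotypes (11.98 against 13.64), the 3 Vim probe sets are higher in transgenic arrays, and the Nes panels show small gaps.

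Vim was higher in transgenic lenses on each of its 3 probe sets, of which 2 passed. On the brightest (1450641_at) the log2 values were 13.52, 13.48 and 13.43 in T1 to T3, against 12.81, 12.89 and 12.95 in W1 to W3. The groups were well separated and narrow, with means of 13.48 ± 0.048 for transgenic and 12.88 ± 0.074 for wild-type lenses (SD, n = 3 each). The difference was 0.60 ± 0.085 (SE; limma adjusted p = 0.00992; 95% interval 0.40 to 0.79).

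The probe set 1456292_a_at gave 12.69, 12.46 and 12.38 in T1 to T3, against 12.06, 11.98 and 11.96 in W1 to W3, a difference of 0.52 ± 0.10 (SE; limma adjusted p = 0.0343). The suffix _a_at marks probes designed against several transcripts of 1 gene. On 1438118_x_at, whose suffix warns of probes that can match other transcripts, the values were 12.89, 12.68 and 12.48 in T1 to T3, against 12.36, 12.22 and 12.26 in W1 to W3. The difference of 0.40 ± 0.12 (SE) had the same direction with groups that did not overlap, and did not pass (limma adjusted p = 0.0983). T1 was the highest array on all 3 Vim probe sets and T3 the lowest transgenic one.

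With 1 array left out, the brightest Vim probe set kept a difference of 0.56 to 0.63. Its call was lost without T2 (limma adjusted p = 0.0511) or W2 (0.0522), within a range of 0.0231 to 0.0522. The call on 1456292_a_at was kept without T3 (limma adjusted p = 0.0405) and lost without any other single array, within a range of 0.0405 to 0.120.

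Nes, the filament protein of progenitor and vascular cells, stood slightly higher in transgenic lenses on each probe set without passing. On the brightest (1449022_at) the log2 values were 8.24, 8.31 and 8.16 in T1 to T3, against 8.06, 8.09 and 8.12 in W1 to W3. The groups did not overlap, yet T3 and W3 lay only a few hundredths apart. On the deposited values the groups overlapped, with T3 at 8.152 and W1 at 8.154, and the difference was 0.080. The difference was 0.15 ± 0.084 (SE; 95% interval -0.045 to 0.34; limma adjusted p = 0.359).

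The second Nes probe set (1418289_at) gave 6.58, 6.69 and 6.62 in T1 to T3, against 6.30, 6.51 and 6.43 in W1 to W3, a difference of 0.21 ± 0.091 (SE; limma adjusted p = 0.228). Its groups did not overlap, and its 95% interval of 0.0057 to 0.42 lay above 0 before adjustment over all probe sets. The third (1453997_a_at) gave 4.05, 4.58 and 3.95 in T1 to T3, against 4.24, 3.88 and 4.13 in W1 to W3. Its groups overlapped, its mean over the 6 arrays of 4.14 lay near the arrays' lower quartile of 4.18, and its difference of 0.11 turned to -0.084 without T2.

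The Gfap probe sets all stood lower in transgenic lenses, with 1 of 3 past the test. On the brightest (1426508_at) the log2 values were 6.32, 6.26 and 6.33 in T1 to T3, against 6.40, 6.58 and 6.62 in W1 to W3. The transgenic arrays were nearly level with each other and W1 lay just above them. The difference of -0.23 ± 0.092 (SE; 95% interval -0.44 to -0.019) did not pass (limma adjusted p = 0.204).

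The Gfap probe set that fell was 1426509_s_at, with 4.49, 4.23 and 4.40 in T1 to T3, against 4.91, 5.04 and 5.03 in W1 to W3. The groups did not overlap, and the difference was -0.61 ± 0.099 (SE; limma adjusted p = 0.0160). All 6 values lay below 5.34, the median of all probe sets, where signal and background are hard to part, and the suffix _s_at marks probes shared by several transcripts. The call was lost without T2 (limma adjusted p = 0.0652), W2 (0.0759) or W3 (0.0693), within a range of 0.0269 to 0.0759. The third (1440142_s_at) gave 4.62, 4.37 and 4.30 in T1 to T3, against 4.97, 4.45 and 4.46 in W1 to W3, with groups that overlapped and a difference of -0.20 ± 0.16 (SE; limma adjusted p = 0.507).

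**Figure D2:**
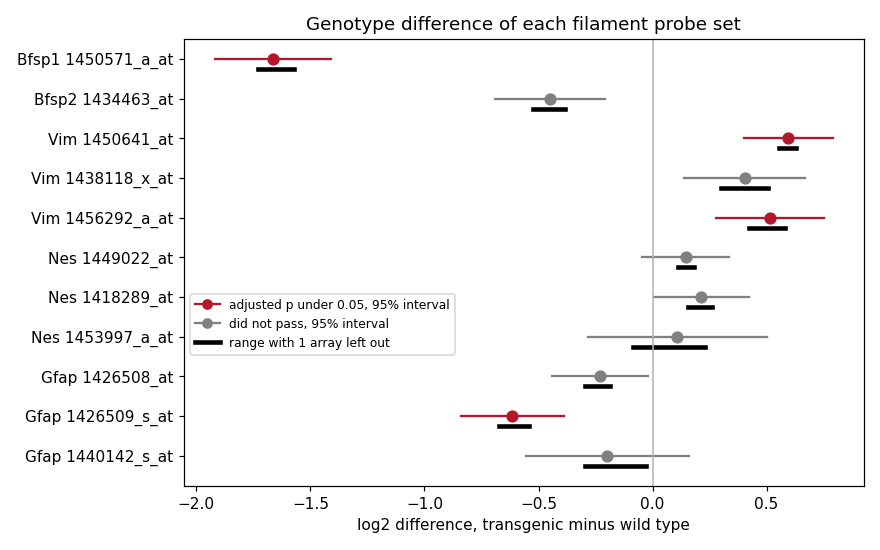
Log2 difference of each of the 11 probe sets (horizontal axis, transgenic minus wild type), with limma's 95% interval and, in black beneath, the range when 1 array is left out. Bfsp1 lies at -1.66 with its interval wholly below that of Bfsp2 at -0.45, and the 3 Vim probe sets lie between 0.40 and 0.60.

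Markers of the cells a lens sample can hold were read beside these values. Crystallin and fiber membrane transcripts such as Cryaa, at a log2 value of 14.54 in each transgenic array and 14.44 to 14.54 in the wild-type arrays, stood near the top of the arrays' range, which marks the samples as lens. Foxe3, a transcription factor gene of the lens epithelium, was 4.64 ± 0.10 (SE) higher in transgenic lenses. That is 24.9-fold, with means of 13.38 against 8.74. It was the only one of 9 epithelial markers to pass. Of the 9, 6 were above 0 and 3 below, the latter being Pax6 at -0.22, Sfrp1 at -0.065 and Dkk3 at -0.31. Transcripts of skin, muscle and connective tissue stood out in T3: the summed level of 10 epidermal markers was 2052 to 30970 (linear scale) in transgenic and 1878 to 3008 in wild-type arrays, with T3 the highest. For 10 muscle markers it was 427 to 8493 in transgenic and 449 to 642 in wild-type arrays, and for 10 fibroblast markers 668 to 12900 in transgenic and 611 to 888 in wild-type arrays. Of these lists 0 epidermal and 0 muscle markers passed in limma (1 and 0 had an unadjusted p under 0.05, as did 22.8% of all genes). Of the 10 fibroblast markers 1 fell, where 2.56% of all genes fell. It was the forkhead factor gene Foxc1, with a difference of -0.54. Bfsp1, Bfsp2 and the 3 Vim probe sets had differences without T3 of -1.57, -0.42, 0.62, 0.50 and 0.58, and the same 4 of 11 probe sets were past the threshold.

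Few markers of other cells that make vimentin, nestin or glial filaments passed. In the same fit 1.85% of all 18193 genes rose and 2.56% fell, each gene read by its brightest probe set. Of 10 endothelial markers 1 rose (Tek, an angiopoietin receptor) and 9 did not pass, and their summed level was 1722 to 1975 in transgenic and 1766 to 2180 in wild-type arrays. Of 9 pericyte and smooth muscle markers Acta2, the smooth muscle actin gene, rose by 0.97 and 8 did not pass (summed level 2275 to 2605 in transgenic and 1712 to 2491 in wild-type arrays). In that list 3 had an unadjusted p under 0.05, against 22.8% of all genes. Of the 9, 7 were above 0, as were 9521 of all 18193 genes, and 2 were below. Of 10 macrophage markers and of 10 measured astrocyte and Müller glia markers 0 passed in limma, with 1 in each list at an unadjusted p under 0.05. The glial list had a median difference of -0.058 and a summed level of 3113 to 3848 in transgenic and 3145 to 4857 in wild-type arrays. Of 11 measured neural retina markers 2 fell (Elavl4 and Sncg, both neuronal) and all 11 were below 0, as were 8672 of all 18193 genes. An unadjusted p under 0.05 was found for 5 of the 11, against 22.8% of all genes. Lower without overlap were 4 of the 11, as were 2459 of all 18193 genes. The median of the 11 was -0.39 and their summed level 1784 to 3026 in transgenic and 2454 to 3833 in wild-type arrays. The part of these cells in the Gfap and Nes values was not tested. Of 5 measured red cell markers 0 passed in limma, with 1 at an unadjusted p under 0.05.

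Markers of lens fibers and epithelium changed in part. Of 9 measured fiber markers, 2 fell as Bfsp1 did, where 2.56% of all genes fell in the same fit. These were the apoptosis inhibitor gene Birc7 with a difference of -1.61 and the nuclease gene Dnase2b with -2.22. The other 7 did not pass, among them the fiber membrane protein gene Lim2 at -0.16 and the water channel gene Mip at 0.043. Some of the 7 lay close to the arrays' ceiling, which can hide a change, as Crybb1 did at 14.59 in every array. Gja3, also among the 7, had a second probe set that passed, at -0.77 (limma adjusted p = 0.0138). Of 9 epithelial markers Foxe3 rose, where 1.85% of all genes rose, and 8 did not pass, with a median difference of 0.11.

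Filament proteins are tied to membranes, junctions and other cytoskeletal systems by linker proteins, and a list of such partners was read next, each gene by its brightest probe set. Of 22 measured genes, 1 rose and 4 fell, where 1.85% of 18193 genes rose and 2.56% fell in the same fit (4.41% either way). With 1 array left out, 0 rose each time and 2 (without W2) to 5 (without W1) fell, 3 of them without T3. The list's median difference was 0.023, against 0.011 for all genes. Sptbn1, which encodes the beta spectrin of the membrane skeleton, stood at 11.10, 11.10 and 11.13 in T1 to T3, against 11.74, 12.03 and 12.10 in W1 to W3. It fell by 0.85 ± 0.11 (SE; limma adjusted p = 0.00565), and 4 of its 5 other probe sets passed too, with differences of -1.61 to -1.25.

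Hspb1, a small heat shock protein that binds filaments, had the largest fall of the list. It stood at 9.76, 9.96 and 10.78 in T1 to T3, against 11.77, 11.97 and 12.35 in W1 to W3, a difference of -1.86 ± 0.26 (SE; limma adjusted p = 0.00854). T3, the array with skin and muscle transcripts, was the highest of the transgenic arrays, and without it the difference was -2.17. A second Hspb1 probe set, whose suffix _x_at warns of probes that can match other transcripts, differed by -2.55 (limma adjusted p = 0.0147). Nrcam, an adhesion molecule that binds ankyrin, fell by 0.70 ± 0.097 (SE; limma adjusted p = 0.00901) and lost its call without W2 (0.0513). Its other probe sets differed by -0.70, -0.70 and -0.10, the first pair past the test.

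Capn3, the gene of a calpain protease expressed in lens, stood at 11.93, 11.90 and 11.76 in T1 to T3, against 12.39, 12.81 and 13.00 in W1 to W3, a fall of 0.87 ± 0.15 (SE; limma adjusted p = 0.0219). Its brightest probe set lost the call without any array but W1 (limma adjusted p up to 0.0916), and a second one differed by -0.99 (limma adjusted p = 0.00433). Macf1, a giant linker of actin and microtubules, was the riser, at 9.17, 9.17 and 9.08 in T1 to T3, against 8.66, 8.72 and 8.78 in W1 to W3. Its rise of 0.42 ± 0.084 (SE; limma adjusted p = 0.0341) was lost with any 1 array left out (0.0598 to 0.127), and other probe sets differed by 0.17 and -0.13.

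The actin-capping gene Tmod1 missed the threshold at -0.54 ± 0.12 (SE; limma adjusted p = 0.0537). The protein 4.1 family gene Epb41l1 at -0.31, the connexin gene Gja3 at -0.32 and the envoplakin gene Evpl at 0.38 did not pass either, although a second Gja3 probe set differed by -0.77 (limma adjusted p = 0.0138). Ppl, the gene of periplakin, which links filaments to the fiber cell membrane, differed by 0.28, the plectin gene Plec by 0.25 and the ankyrin gene Ank2 by -0.038. The crystallin chaperones of filaments, Cryaa at 0.034 and Cryab at 0.031, had values close to the arrays' ceiling, which can hide a change.

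Among 22 other intermediate filament genes, 0 passed limma's test in either direction, and 4 had an unadjusted p under 0.05, against 22.8% of all genes. Their median difference was 0.19, against 0.011 for all genes. Of the 22, 14 were above 0, as were 9521 of all 18193 genes. Several of the 14, among them the epidermal keratins given below, were above 0 mainly through T3. Des, which encodes the muscle filament protein desmin, came nearest, at 6.53, 6.88 and 7.47 in T1 to T3, against 5.98, 6.23 and 6.29 in W1 to W3. Its groups did not overlap, T3 was highest, and the difference was 0.80 ± 0.21 (SE; limma adjusted p = 0.0821). Without T1 it passed, at 1.01 (limma adjusted p = 0.0464), and without T3 it was 0.54 (0.0971). A second Des probe set differed by 0.33 (limma adjusted p = 0.163).

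The keratin gene Krt8 (0.43), Iffo1 (0.31) and the neurofilament gene Nefm (-0.45) were next by p and did not pass. Differences of 5 epidermal or hair keratins, Krt5, Krt10, Krt14, Krt15 and Krt17, ran from 1.09 to 1.53 and rested on T3, as Krt14 shows with 4.71, 4.70 and 9.63 in T1 to T3, against 4.64, 4.73 and 5.07 in W1 to W3. The neurofilament genes Nefl (-0.57), Nefm, Nefh (-0.30) and Ina (-0.33) were below 0 and did not pass, each with groups that overlapped. Another neuronal filament gene of the list, Prph, stood at 0.050, also with groups that overlapped. Synm, the synemin gene, whose product joins vimentin filaments, stood at 10.10, 9.91 and 9.70 in T1 to T3, against 9.25, 9.79 and 9.83 in W1 to W3, with groups that overlapped.

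Of 12 measured genes for enzymes known to modify vimentin, 0 passed in limma, with a median difference of -0.15. An unadjusted p under 0.05 was found for 4 of them, against 22.8% of all genes. Of these 4, 2 were lower in transgenic lenses, the mitotic kinase genes Plk1 at -0.38 ± 0.096 (SE; limma adjusted p = 0.0693) and Cdk1 at -0.42, and 2 were higher, among them the transglutaminase gene Tgm2 at 0.24.

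**Figure D3:**
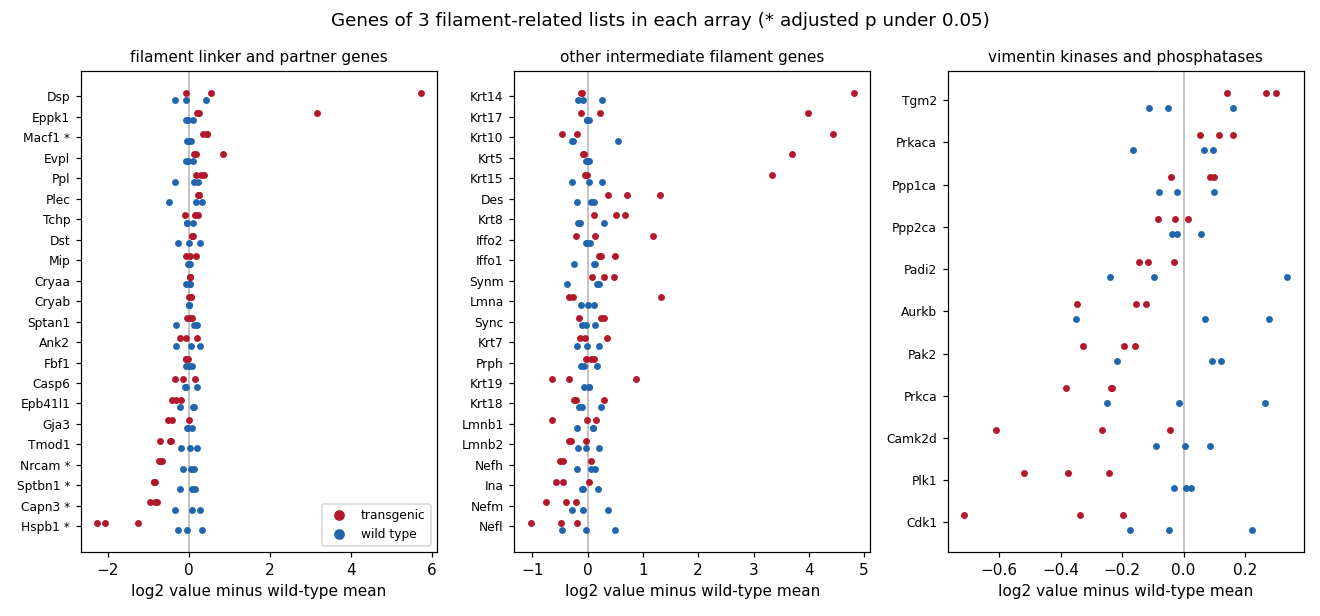
Log2 value of each gene's brightest probe set minus its wild-type mean (horizontal axis), with the transgenic arrays in red above the wild-type arrays in blue and 1 row for each gene shown. Hspb1, Capn3, Sptbn1 and Nrcam lie left of 0 in all transgenic arrays, and single red points beyond 3 log2 units are T3 values of Dsp, Eppk1 and keratin genes.

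The genes whose profile over the 6 arrays lay nearest to Bfsp1 and to Vim were found by the root mean square distance between log2 profiles centred on their own means. They were sought among 11637 genes at or above the median level, with provisional symbols (Rik, Gm, LOC or accession-like names) left out. Nearest to Bfsp1 was Ceacam10, a gene of the carcinoembryonic antigen family, at a distance of 0.062 log2 units. It stood at 7.53, 7.42 and 7.27 in T1 to T3, against 8.97, 9.22 and 9.28 in W1 to W3. Nbas, Tcp11, Gtsf1 and Lrrc75b followed at 0.081 to 0.090, with all 5 lower in transgenic lenses, at log2 differences of -1.75 to -1.66.

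Nearest to Vim were Nt5dc2 at a distance of 0.039, Pcp4, which encodes a calmodulin-binding peptide, Mcm3ap, the trefoil factor gene Tff1 and Srgap1, at up to 0.045. Nt5dc2 stood at 11.46, 11.51 and 11.39 in T1 to T3, against 10.74, 10.89 and 10.88 in W1 to W3. The differences of the 5 genes ran from 0.52 to 0.63. Closeness over 6 arrays in 2 groups follows mainly from a difference of the same size between the genotypes.

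**Figure D4:**
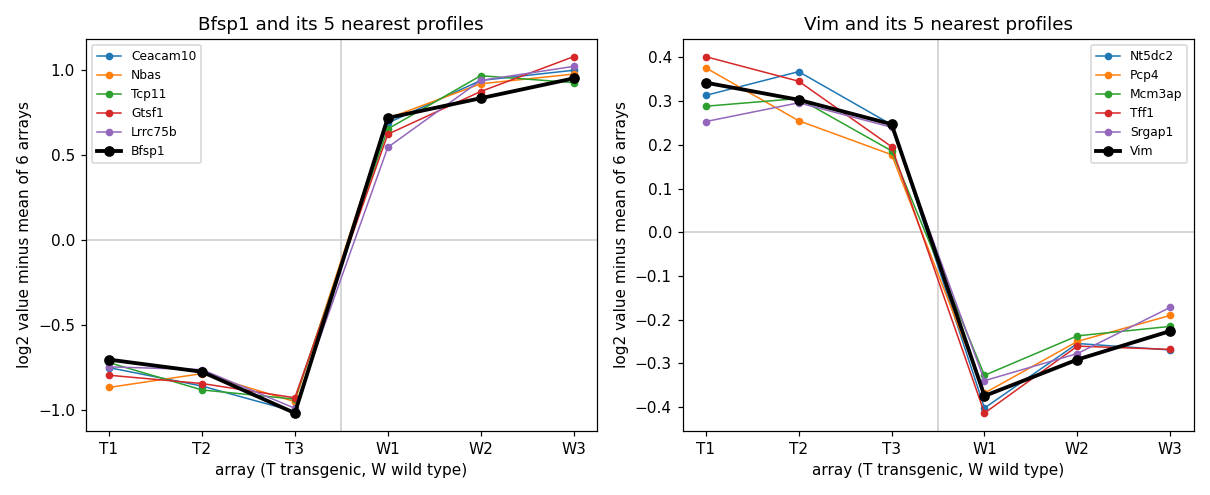
Log2 values minus the mean of the 6 arrays (vertical axis) for Bfsp1, left, and Vim, right, each in black with its 5 nearest genes in colour, over the transgenic arrays T1 to T3 and then the wild-type arrays W1 to W3. Lines only join the points of 1 gene; the Bfsp1 panel spans about 2 log2 units and the Vim panel less than 1.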

How the data were processed

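Lens RNA was purified with a GenElute kit and labelled with biotin by in vitro transcription, according to the labels' protocols. The authors deposited 1 log2 value per probe set and array. How the authors summarised and normalised them is not given in the sources used, and the log2 scale was read from the range of the values, 2.68 to 14.8.

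After 64 control probe sets were set aside, the arrays' upper quartiles differed by 0.120, above the limit of 0.1 set for this check, so the 6 arrays were quantile normalised in limma 3.58.1 (R 4.3.3). No pair of arrays was identical. Names came from the platform annotation in GEO, updated through RefSeq (GRCm38.p6), which matched 99.4% of the 34945 probe sets with 1 symbol; 932 had several symbols and 9160 had none here. Genotypes were compared by lmFit and eBayes over all 45037 probe sets, with Benjamini-Hochberg adjustment and a threshold of 0.05. The fit was tested on simulated data. List genes are given by their probe set with the highest mean. The lists are 3 of filament-related genes and 11 of cell type markers.

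Named are all probe sets of the members, every list gene past the threshold, the next 4 by p in each filament-related list, and the 5 nearest profiles of each member whose brightest probe set passed; 1 gene of the vimentin enzyme list is not reported here by name but is counted in that list's totals. Dsp, Eppk1, Ppl, Plec, Ank2, Cryaa, Cryab, Synm, Prph, the neurofilament genes and the epidermal keratins fall outside this rule and were chosen after their values were seen, as were the single markers named. The members and lists were chosen with earlier results of these data known. Alternatives were the deposited values, a common median, dim probe sets left out, 1 probe set a gene or their mean, trended robust variances, array weights, a replicate block and each array left out.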

Additional observations from a re-analysis of the deposited data

How the results depend on the processing

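Bfsp1 was lower and passed in the 8 alternatives that kept all arrays and with each of the 6 arrays left out, between -1.74 and -1.57. Over the 8 that kept all arrays, Bfsp2 ran from -0.49 to -0.42 and passed under 4 (limma adjusted p from 0.0107 to 0.117), and the brightest Vim probe set passed under all 8 (0.50 to 0.60). Probe sets passing numbered 661 higher and 995 lower. They were 352 and 475 with 1 probe set a gene, 267 and 433 with the mean over each gene's probe sets, 1063 and 1504 with array weights, and 131 to 393 and 302 to 858 with 1 array left out. Correlations of deviations were 1.49e-05, 0.12 and 0.030 for same-numbered arrays, and -0.11 to 0.066 for arrays of different numbers. With 3 arrays per genotype these values cannot decide whether replicate numbers pair the samples. With the replicate block 230 probe sets were higher and 483 lower, and of the member probe sets 1 was higher and 1 lower. After shifting the deposited arrays to a common median, 1 member probe set was higher and 3 were lower. With 1 probe set a gene, or the mean over each gene's probe sets, 1 member was higher and 1 lower. With 1 array left out, 0 to 2 member probe sets were higher and 1 to 3 lower. Of the filament partner genes, 0 rose on the deposited values, after the shift to a common median, with the mean over each gene's probe sets, with the replicate block or with 1 array left out, and 2 to 5 fell with 1 array left out. Of the other intermediate filament genes, 0 to 1 rose with 1 array left out. Of the vimentin enzyme genes, 1 fell after the shift to a common median, and 1 rose with trended variances or array weights. The third Nes probe set (1453997_a_at) turned to -0.084 without T2, within -0.084 to 0.23 over the arrays left out. The brightest Hspb1 probe set lost its call with trended variances (limma adjusted p = 0.0528). The causes were not tested, beyond fewer arrays or probe sets in some fits. Probe sets below the median level, 3 of the 11, limit what can be said of Gfap and Nes.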
